A study of Mus musculus with 192 samples.

Results

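Cytoplasmic ribosomal protein genes were followed across all 64 stimulation groups of a series on mouse dendritic cells. The members are the gene symbols built as Rps or Rpl plus a number, together with Rpsa, Rplp0, Rplp1 and Rplp2, with at least as many counts in total as there are libraries, 3 in each group. Of 84 such symbols, 74 reached that sum, out of 23481 symbols in the file, and all 74 were abundant enough to be tested. By symbol alone, 31 were counted with the small and 43 with the large ribosomal subunit, the latter including Rpl7l1, a paralogue of Rpl7 known in ribosome assembly. Apart from this total over all libraries, the rule uses no measured value. The lowest total among the members was 1131 counts (Rps15a), and the highest among the 10 symbols left out was 191 (Rpl34).

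The cytoplasmic ribosome translates nearly all cellular mRNA. Its small subunit reads the message and its large subunit joins the amino acids, and each is built from ribosomal RNA and many proteins that are needed in about equal numbers. Messages for these proteins usually begin with a short pyrimidine tract, the terminal oligopyrimidine (TOP) motif, through which the kinase mTOR and the RNA-binding protein Larp1 set their translation and stability. Activated dendritic cells, the cells that present antigen to T cells, are known to change their metabolism and protein synthesis within hours of sensing a microbe.

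The cells were dendritic cells grown from bone marrow of female C57BL/6J mice, 6 to 8 weeks old, with the growth factor GM-CSF at 15 ng/mL, and 100000 cells per well were exposed to ligands of innate immune receptors for 6 h. The ligands carry the labels' names: PAM, LPS (lipopolysaccharide), HMW, Zymosan (a depleted preparation), SeV, cGAMP (3',3'-cGAMP) and CpGB. A control group, Ctrl, received none, 7 groups received 1 ligand, 21 a pair and 35 a triplet, each with 3 libraries. The labels do not say whether the 3 libraries of a group came from separate mice or cultures, so the p-values measure the spread between these libraries, which may be technical.

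Library totals ran from 46564 to 610234 unique molecular identifiers (UMIs, counted molecules) with a median of 171616.5. The Ctrl libraries were shallow, with totals of 61823 to 89530, below every single-ligand library (98306 to 229979). Markers of dendritic cells and macrophages (10 of 11 listed genes present in the file, none at 0) summed to 19786 CPM (counts scaled to a common library total) in Ctrl and to 11505 to 19786 over the groups. Neutrophil and precursor markers summed to 471 to 923 CPM over the groups. The 3 erythroid markers had no count, and the T cell, B cell and mast cell lists stayed at or below 20.3 CPM. In bulk libraries like these, fewer cells of a type and less RNA per cell cannot be told apart.

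The start of a message is where the TOP motif lies, so the genomic sequence around the annotated starts is shown for members on which the results below turn. RefSeq starts (GRCm38.p6) were found for 55 of the 74 members, of which 8 had several. Where a member had several starts, the start with the longest run of C or T within 25 bases of it was chosen for display. Each window has 15 bases before the start and 15 from it, 5′ to 3′ on the gene's strand, and capitals mark the longest unbroken run of C or T in the window.
Rpl13a: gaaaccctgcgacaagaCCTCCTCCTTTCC
Rps6: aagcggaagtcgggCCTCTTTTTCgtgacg
Rps21: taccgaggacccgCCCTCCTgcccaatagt
Rps24: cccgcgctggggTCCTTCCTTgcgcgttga
Rps27l: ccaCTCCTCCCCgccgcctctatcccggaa
Rpl10a: gCTCTatttgagcgcatgcgcaaagcgctc
Rpl24: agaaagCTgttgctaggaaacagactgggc
The windows lie at chr7:45128731-45128760 (Rpl13a, minus strand), chr4:86857353-86857382 (Rps6, minus), chr2:180257364-180257393 (Rps21, plus), chr14:24490663-24490692 (Rps24, plus), chr9:66946071-66946100 (Rps27l, plus), chr17:28328550-28328579 (Rpl10a, plus) and chr16:55966260-55966289 (Rpl24, plus). Rpl13a had the longest of these runs, 13 bases, and Rpl24 the shortest, 2 bases.

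A run of at least 8 pyrimidines (only C or T, on the gene's strand) within 25 bases of an annotated start was found in 28 of the 55 members, or 50.9%, and in 22.3% of all 27025 genes in the same table. A start with C followed directly by at least 4 pyrimidines was found in 11 members, or 20.0%, against 3.01% of all genes. Annotated starts can lie some bases from the start used in these cells, and a match is a description of the letters only. The 28 members with a run and the 27 without had median log2 fold changes of -0.49 and -0.56 with LPS alone, -0.40 and -0.39 with cGAMP alone, and -0.16 and -0.36 with PAM alone.

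Ribosomal protein mRNA made up a larger share of the counted molecules in unstimulated cells than in any stimulated group. The 74 members held 5.97%, 5.81% and 6.04% of the UMIs in the 3 Ctrl libraries (mean 5.94% ± 0.12, SD, n = 3). HMW alone came closest, with 5.49%, 5.22% and 5.46%. Zymosan alone gave 4.63% ± 0.19, PAM 4.50% ± 0.11, CpGB 4.17% ± 0.25, SeV 4.09% ± 0.07 and cGAMP 4.07% ± 0.13. LPS alone gave the lowest single-ligand share, with 3.49%, 3.55% and 3.53%. All 189 stimulated libraries lay below the lowest Ctrl library, and the 186 without HMW alone lay below the lowest HMW library. SeV and cGAMP did not differ beyond their spread.

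Group means of the share ran from 3.20% to 4.45% for the pairs (median 3.77%) and from 3.22% to 4.34% for the triplets (median 3.55%). PAM + LPS had the lowest mean, 3.20% ± 0.14, and the lowest single library, at 3.00%, belonged to PAM + Zymosan + cGAMP. Over the 22 pairs of groups that differ only by a given ligand, the share with the ligand was lower in 20 for LPS (mean difference -0.588 percentage points), 19 for cGAMP (-0.600), 18 for PAM (-0.343), 16 for Zymosan (-0.201) and 15 for SeV (-0.406). It was lower in 13 for HMW (-0.0949) and 11 for CpGB (-0.216). Without the pair that includes Ctrl, the mean differences were -0.501 (LPS), -0.540 (cGAMP), -0.290 (PAM), -0.148 (Zymosan), -0.337 (SeV), -0.0733 (HMW) and -0.142 (CpGB). A share also falls when other genes rise. The 50 most abundant other genes took 27.0% of UMIs in Ctrl and 32.6% with LPS, and with their UMIs left out of the total the member share was 8.13% in Ctrl and 5.23% with LPS. Within groups, the share and the logarithm of the library total had a Pearson r of 0.00641 over all libraries, a description with no test.

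**Figure D1:**
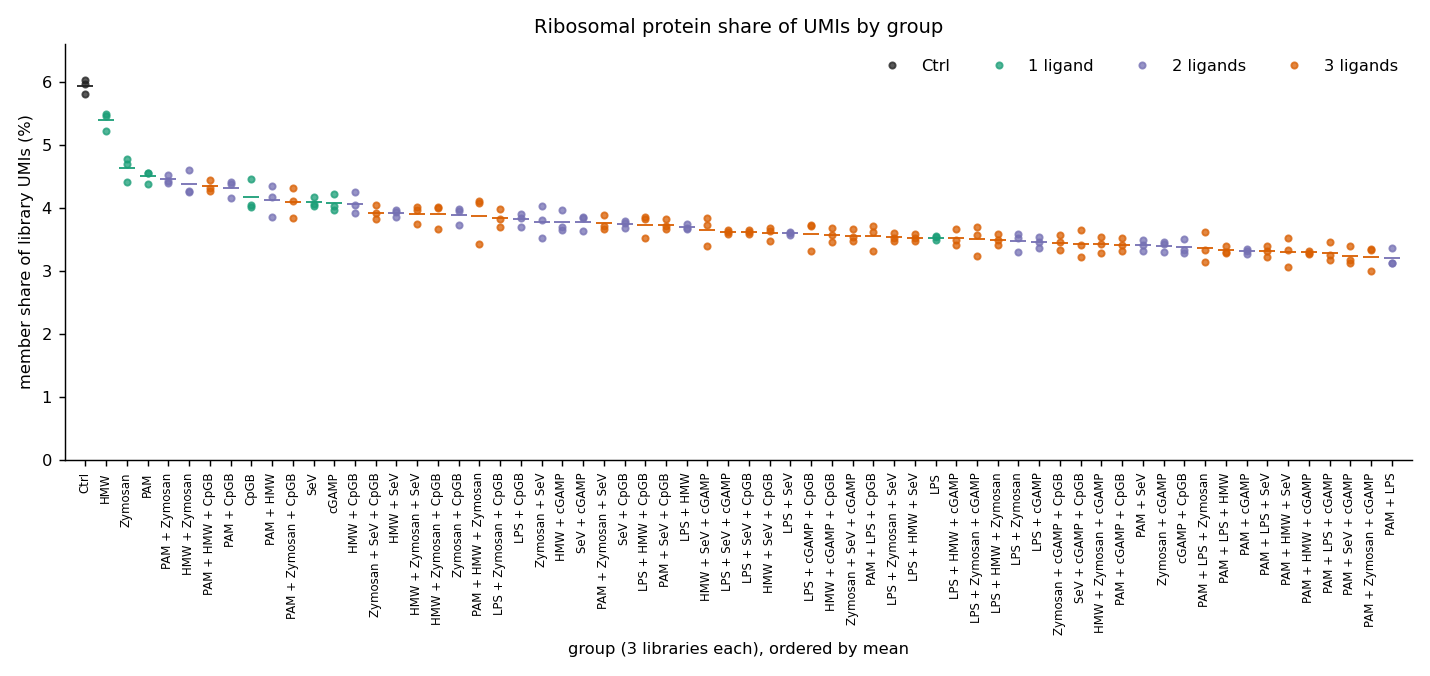
Percentage of each library's UMIs that fell on the 74 ribosomal protein genes (vertical axis) in the 64 groups, ordered by mean (horizontal axis); points are libraries, dashes are means of 3, and colours give the number of ligands. The Ctrl libraries, at 5.81% to 6.04%, lie above all others, and HMW alone is next at 5.22% to 5.49%.

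Each single ligand was then compared with Ctrl gene by gene, to ask how a lone stimulus changed the ribosomal protein messages. LPS lowered 49 of the 74 members (66.2%) and raised 2, by edgeR's quasi-likelihood test with a Benjamini-Hochberg adjusted p under 0.05, computed over 4720 genes. The background was 12.9% of all tested genes lower and 17.1% higher. The median log2 fold change of the members was -0.54, and that of all tested genes -0.07. These medians moved with the scaling, to -0.835 and -0.361 with library sizes alone and, with no filter on low counts, to -0.28 and 0.179 over the same 4720 genes. SeV lowered 32 members (43.2%, background 7.25%) and raised none (background 12.2%), with a member median of -0.43. CpGB lowered 29 (39.2%, background 8.92%) and raised 1 (background 12.5%), with a median of -0.37.

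cGAMP lowered 27 members (36.5%, background 8.16%) and raised none (background 13.5%), with a median of -0.38. PAM lowered 15 (20.3%, background 7.78%) and raised 1 (background 9.68%), with a median of -0.28, and Zymosan lowered 13 (17.6%, background 2.86%) and raised 1 (background 6.23%), with a median of -0.24. With HMW no member was called in either direction by edgeR with TMM factors, against a background of 0.0212% lower and 1.19% higher. At an unadjusted p under 0.05, 11 members were lower with HMW (14.9%, against 2.80% of all tested genes) and 1 was higher (1.35% against 6.12%). DESeq2 called 4 lower of the 67 members to which it gave an adjusted p (5.97%, against 1.14% of the 968 genes with one). By edgeR 2 members (2.70%) were lower with the RLE scaling (background 0.127%), with library sizes alone (0.0636%) and with a replicate block (0.0636%). HMW members had a median of -0.13, with all tested genes at 0.03. The 7 comparisons share the 3 Ctrl libraries and are not independent of each other.

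The summed level of the 10 dendritic cell and macrophage markers moved with these comparisons. It was 19786 ± 881 CPM in Ctrl (SD, n = 3) and 12913 with LPS, where the libraries ran from 12692 to 13038, and no LPS library overlapped Ctrl. It was 14679 ± 468 with cGAMP, 15192 ± 604 with CpGB, 15614 ± 213 with SeV, 16023 ± 148 with PAM, 16106 ± 87.9 with Zymosan and 18458 ± 831 with HMW. The 6 neutrophil and precursor markers summed to 740 ± 177 CPM in Ctrl and 906 ± 123 with LPS, with overlapping libraries, and to 653 to 883 with the other ligands. The part of these markers in the members' changes was not tested.

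Rpl10a, Rps3, Rps14 and Rps24 were each lower with 6 single ligands, all but HMW, of which Rps24 is outside the rule for named genes and was chosen after its values were seen. Ctrl was the highest of the 64 groups for 45 members (60.8%, against 13.1% of all tested genes) and among the 5 highest for 59 (79.7%, against 25.9%). With LPS 22 of 31 small-subunit and 27 of 43 large-subunit members were lower, with median log2 fold changes of -0.55 and -0.52. With cGAMP 10 and 17 were lower, with medians of -0.33 and -0.40. The ratio of the large-subunit to the small-subunit share of UMIs was 1.27 in Ctrl and 1.23 to 1.33 over the single-ligand groups.

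**Figure D2:**
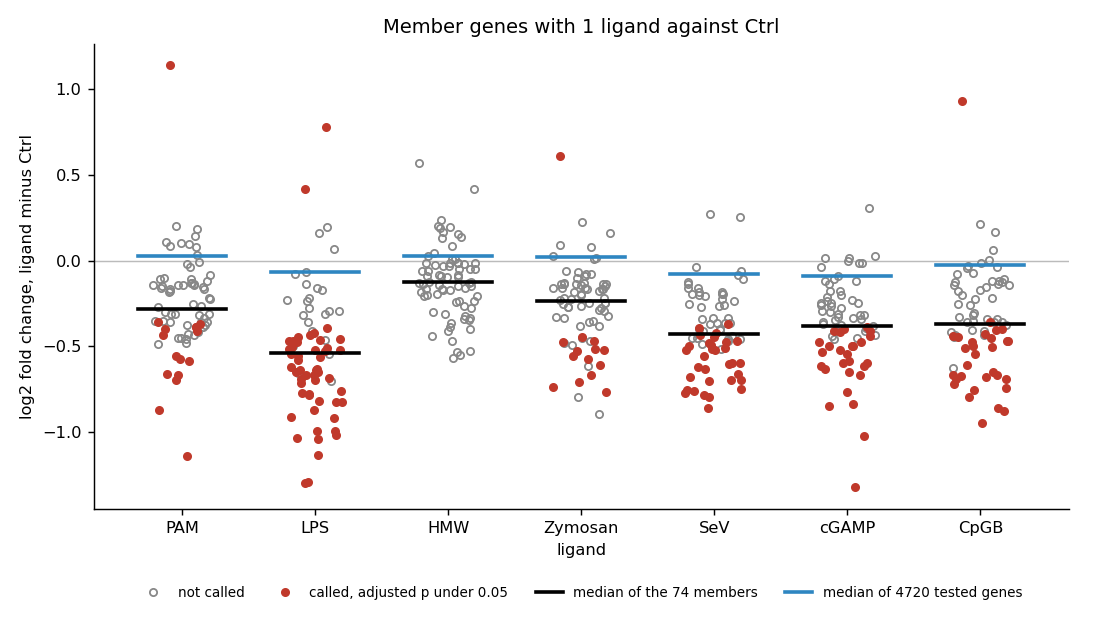
Log2 fold change of each member (points) with 1 ligand against Ctrl (vertical axis, 3 libraries against 3) for the 7 ligands (horizontal axis); filled points passed an adjusted p under 0.05, the black line is the members' median and the blue line that of 4720 tested genes. The black line lies below the blue line for each ligand, with the lowest member median, -0.54, for LPS.

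Rpl10a, a large-subunit protein on chromosome 17 (28328471 to 28331033, plus strand, GRCm38), gave one of the widest falls. Its Ctrl libraries held 776, 836 and 711 CPM, and its LPS libraries held 357, 316 and 282. The groups did not overlap, and the log2 fold change was -1.29 ± 0.18 (SE, edgeR adjusted p = 2.51e-10). With the other ligands Rpl10a changed by -0.88 (CpGB), -0.85 (cGAMP), -0.70 (SeV), -0.67 (Zymosan) and -0.66 (PAM), each past the threshold, and with HMW it stood at 576 ± 67.4 CPM with a change of -0.44 that missed it (edgeR adjusted p = 0.271). The falls with Zymosan, PAM and SeV were no longer called when replicate 2 of all groups was left out (edgeR adjusted p = 0.227, 0.133 and 0.133).

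Rps21 and Rps14 are small-subunit proteins, and reduced dosage of human RPS14 is a known cause of anaemia in a myelodysplastic syndrome. Rps21 held 429, 511 and 547 CPM in Ctrl and 164, 233 and 206 with LPS, a fall of -1.30 ± 0.20 on the log2 scale (edgeR adjusted p = 2.14e-08), the largest with LPS. It also had the largest called fall with Zymosan, to 290 ± 28.9 CPM (-0.76 ± 0.20, edgeR adjusted p = 0.00327), a call that was lost without Ctrl replicate 3 (adjusted p = 0.0821). Rps14 held 692, 798 and 720 CPM in Ctrl and 359, 337 and 438 with CpGB, the largest fall with that ligand (-0.95 ± 0.19, edgeR adjusted p = 1.67e-05). In each of these comparisons all 3 stimulated libraries lay below all 3 Ctrl libraries.

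Rpl22, a large-subunit protein that binds RNA and is known for its role in lymphocyte development, was the member with the largest fall with PAM and with SeV. It held 291, 299 and 374 CPM in Ctrl, 184, 131 and 133 with PAM and 201, 176 and 169 with SeV. The log2 fold changes were -1.14 ± 0.26 and -0.86 ± 0.26 (edgeR adjusted p = 0.00028 and 0.00949). Without Ctrl replicate 3, its highest Ctrl library, the SeV fall had an adjusted p of 0.167, and without replicate 3 of all groups the PAM fall had 0.0621. Rpl36, another large-subunit protein, had the largest fall of any member with cGAMP, -1.32 ± 0.34 (edgeR adjusted p = 0.00134), but its Ctrl libraries at 249, 237 and 106 CPM overlapped the cGAMP libraries at 128, 64.3 and 49.1. That call was lost without replicate 2 of all groups (adjusted p = 0.154).

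Rpl24, a large-subunit protein whose mouse mutant is the Belly spot and tail strain, moved against the rest. Its Ctrl libraries held 305, 337 and 432 CPM, the lowest group mean of all 64. PAM libraries held 735, 814 and 856, CpGB libraries 592, 715 and 747, and LPS libraries 588, 565 and 711, and none of these overlapped Ctrl. The log2 fold changes were 1.14 ± 0.17 (PAM), 0.93 ± 0.18 (CpGB), 0.78 ± 0.18 (LPS) and 0.61 ± 0.19 (Zymosan), with edgeR adjusted p of 1.61e-08, 6.55e-06, 0.000174 and 0.0189. The Zymosan rise was not called with the RLE scaling (adjusted p = 0.0846) or without Ctrl replicate 1 or 2 (0.138 and 0.0656), and after thinning all libraries to equal totals the LPS rise was not called (0.58, adjusted p = 0.0743). In the annotation Rpl24 shares its strand and place on chromosome 16 (55966275 to 55971435) with the transcript Gm28037, so counts of the pair may not be separable.

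**Figure D3:**
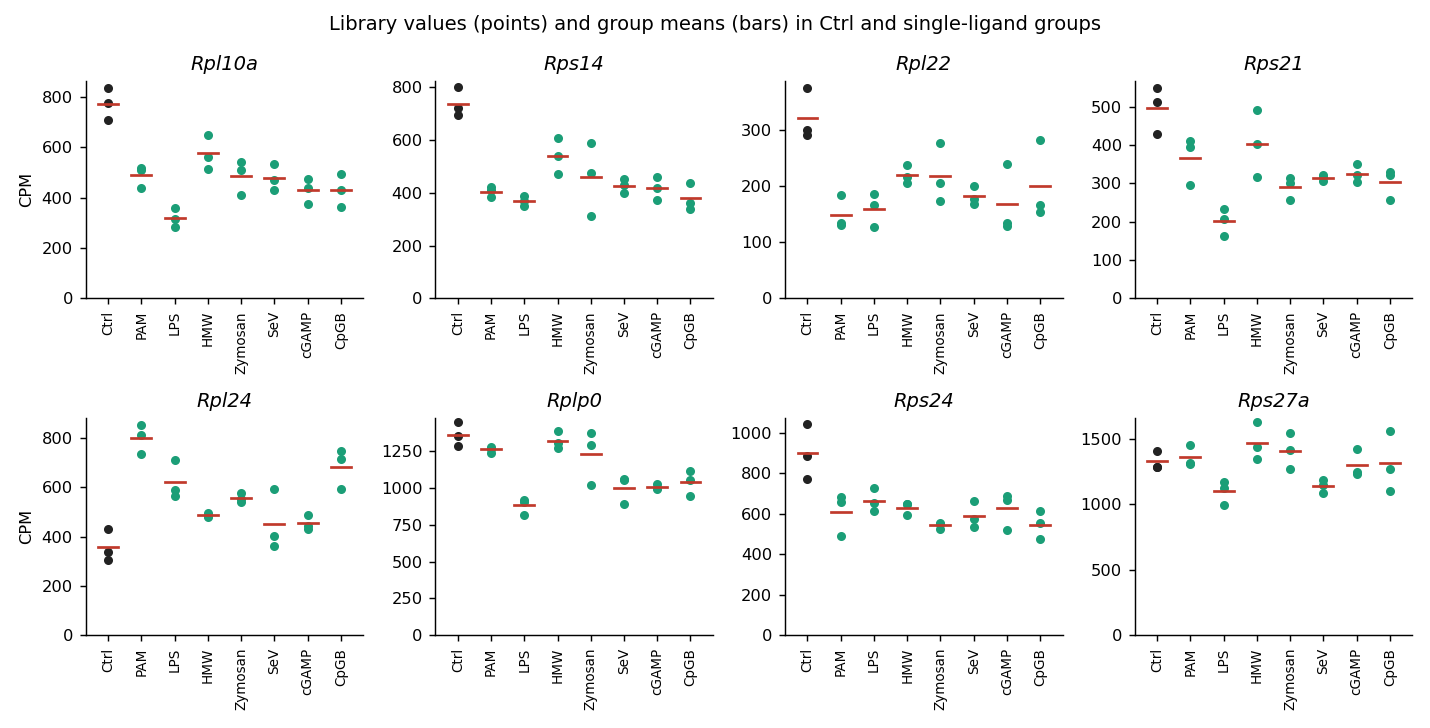
CPM of 8 members (panels, vertical axes) in the 3 Ctrl libraries (dark points) and the 3 libraries of each single-ligand group (green points), with group means as red bars. Rpl10a, Rps14, Rpl22 and Rps21 are highest in Ctrl, Rpl24 is lowest there, Rplp0 has its lowest mean with LPS, and Rps27a lies below all Ctrl libraries with LPS and SeV and overlaps them with the rest.

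The stalk proteins Rplp0 and Rplp1, which recruit translation factors to the large subunit, were among the most abundant members. Rplp0 held 1288, 1447 and 1354 CPM in Ctrl and 819, 920 and 908 with LPS, its lowest group mean of all 64 (882 ± 55.3), and was lower with 4 of the 7 single ligands. Rplp1 held 1509 ± 101 CPM in Ctrl and was lower with 3, with its lowest mean in PAM + LPS (944 ± 49.6). The third stalk protein, Rplp2, had 1 count in all libraries together and is not a member.

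Members known for roles beyond the ribosome behaved unevenly. Rpl5 and Rpl11, which bind Mdm2 and so connect the ribosome to p53, were each lower with 5 single ligands, from 841 ± 72.6 and 971 ± 68.2 CPM in Ctrl to lowest group means of 403 ± 20.1 and 527 ± 8.24. Rpl13a, known as part of an interferon-gamma-dependent translation silencing complex, was lower with 5, from 559 ± 104 CPM. Rps3, a small-subunit protein also known in DNA repair and NF-kappaB signalling, was lower with 6 and held 1053, 1110 and 979 CPM in Ctrl and 669, 667 and 610 with SeV.

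Rpsa, the laminin receptor protein of the small subunit, was lower with 4 (1335 ± 109 CPM in Ctrl, lowest 687 ± 67.1 in PAM + LPS). Rpl10, a late-joining large-subunit protein and the member with the highest total count (46469), was lower with 4, from 1875 ± 124 CPM. Rps19, mutated in Diamond-Blackfan anaemia, was lower with 2, and Rps6, the substrate of the S6 kinases, with 1. Rps27a, which is made as a fusion with ubiquitin, was called with none, at 1328 ± 70.5 CPM in Ctrl and 1169, 998 and 1128 with LPS, below all 3 Ctrl libraries (edgeR adjusted p = 0.0904). The least abundant members, Rps15a and Rpl7l1, were called with no single ligand, and Rps28 with 1.

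The number of members called against Ctrl depended on the filter, on the libraries kept and on the scaling, while the members' median stayed below that of all tested genes with each of the 7 ligands in each setting tried, except with HMW when no filter on low counts was used (members at 0.035, with the 14862 genes then tested at 0.00 and the 4720 genes tested otherwise at 0.190). With no filter, 13 members were lower with LPS (17.6%, background 2.25%), 5 with cGAMP (6.76%, background 1.34%), 4 with CpGB (5.41%, background 1.49%), 2 with PAM (2.70%, background 1.33%), 1 with SeV (1.35%, background 0.740%) and none with Zymosan (background 0.249%). When libraries were left out, the filter was applied again, so that 4959 to 5028 genes were tested in the 6 settings that follow. Over these 6 settings the share of members lower ran from 39.2% to 52.7% with LPS (background 8.48% to 9.94%), 16.2% to 36.5% with SeV (3.74% to 5.03%), 12.2% to 28.4% with cGAMP (4.78% to 6.05%) and 12.2% to 32.4% with CpGB (5.38% to 7.18%). It ran from 9.46% to 13.5% with PAM (5.18% to 5.93%) and from 4.05% to 12.2% with Zymosan (1.24% to 1.90%). Leaving out Ctrl replicate 3 left 29 members lower with LPS, 14 with SeV, 14 with CpGB, 9 with cGAMP and 4 with Zymosan, without Ctrl replicate 2 the counts for SeV, CpGB, cGAMP, PAM and Zymosan were 16, 12, 12, 7 and 4, and without Ctrl replicate 1 those for SeV, CpGB and PAM were 21, 12 and 8. Leaving out replicate 3 of the single-ligand groups left 32 (LPS), 12 (SeV), 14 (cGAMP), 11 (CpGB) and 8 (Zymosan), leaving out replicate 2 left 16 (SeV), 13 (cGAMP), 9 (CpGB), 7 (PAM) and 3 (Zymosan), and leaving out replicate 1 left 9 (PAM) and 7 (Zymosan). After 1 random thinning of every library to 46564 UMIs, 53 members were lower with LPS (73.6% of those tested, background 17.5%) and none was higher.

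To describe each ligand with less weight on the shallow Ctrl libraries, the 22 groups with a ligand were compared with the 22 matched groups without it, 66 libraries on each side. cGAMP lowered 48 members (64.9%, background 29.7%) and raised 3 (background 28.2%). LPS lowered 47 (63.5%, background 29.3%) and raised 5 (background 29.6%), and SeV lowered 35 (47.3%, background 16.7%) and raised 1 (background 20.6%). The member medians were small, at -0.11, -0.12 and -0.08 on the log2 scale, with all tested genes at -0.05, -0.02 and -0.04. The difference of these medians, -0.066, -0.098 and -0.046, was -0.141, -0.188 and -0.111 after thinning and, with no filter on low counts, -0.02, -0.052 and -0.01 against all 14862 genes then tested but -0.064, -0.096 and -0.046 against the same 4720 genes.

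For PAM, Zymosan and CpGB the share of members lowered was below the background, which depended on the scaling, and for HMW it was above it on small counts. PAM lowered 11 (14.9%, background 18.7%) and raised 5 (background 21.2%), Zymosan lowered 9 (12.2%, background 20.4%) and raised 2 (background 21.3%), CpGB lowered 9 (12.2%, background 17.7%) and raised 4 (background 19.0%), and HMW lowered 6 (8.11%, background 2.10%) and raised 2 (background 7.94%). These comparisons share groups with each other.

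With no filter on low counts, 33 members were lower with cGAMP (44.6%, background 9.87%), 28 with LPS (37.8%, background 9.14%), 10 with SeV (13.5%, background 3.74%), 4 with Zymosan (5.41%, background 5.38%), 1 with PAM (1.35%, background 5.08%) and none with CpGB (background 4.76%) or HMW (background 0.148%). The split for PAM was 11 lower and 5 higher, but 62 and 2 with library sizes alone and 21 and 3 with the RLE scaling, where the share lower was above the background (83.8% against 36.2% and 28.4% against 22.5%). For CpGB it was 34 and 3 with library sizes alone (45.9% lower, background 24.6%), and 4 and 8 both with factors computed without the members (5.41% lower, background 15.1%) and without the pair that includes Ctrl (5.41% lower, background 16.4%). For Zymosan, library sizes alone gave 27 and 1 (36.5% lower, background 27.1%), and factors without the members 7 and 4 (9.46% lower, background 19.5%). With factors without the members, the share lower with PAM was 23.0% (background 20.1%). Without the pair that includes Ctrl, the lower counts were 20 for SeV and 6 for PAM, without replicate 1 of all groups SeV had 10, PAM 6, Zymosan 4, CpGB 1 and HMW 0, without replicate 2 SeV had 22, Zymosan 4, CpGB 3 and HMW 1, and without replicate 3 CpGB had 4 and HMW 1. Over the 3 settings without a replicate, the share lower with SeV was 13.5% to 32.4% (background 9.46% to 10.4%), and that with HMW was 0.00% to 1.35% (background 0.300% to 1.28%). It was 8.11% to 12.2% with PAM (background 13.6% to 15.4%), 5.41% to 10.8% with Zymosan (13.6% to 15.1%) and 1.35% to 5.41% with CpGB (at most 11.8%, and above the members in each of the 3). Without the pair that includes Ctrl, it was 27.0% with SeV (background 13.7%) and 8.11% with PAM (background 17.5%).

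**Figure D4:**
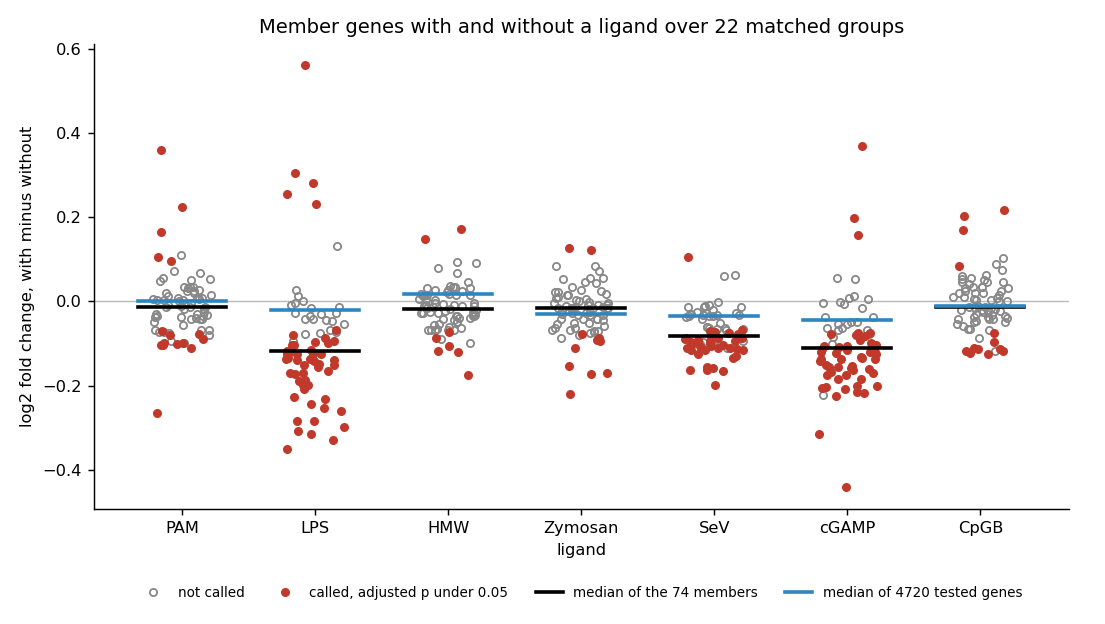
Log2 fold change of each member (points) between the 22 groups with a ligand and the 22 matched groups without it (vertical axis) for the 7 ligands (horizontal axis), marked as in the plot for single ligands. The members' medians are -0.12 for LPS, -0.11 for cGAMP and -0.08 for SeV and run from -0.02 to -0.01 for the rest.

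Rpl10a was the member with the largest fall with LPS and with SeV. Its libraries with LPS had a lowest, median and highest value of 168, 334 and 453 CPM, and those without it 268, 424 and 836, so the ranges overlapped. The group mean was lower with LPS in 20 of 22 matched groups, with a log2 fold change of -0.35 ± 0.04 (edgeR adjusted p = 6.23e-16). With SeV it fell by -0.20 ± 0.04, in 17 of 22 groups (edgeR adjusted p = 4.81e-06). Rpl22 was the member with the largest fall with PAM, -0.27 ± 0.06 in 20 of 22 groups (edgeR adjusted p = 2.35e-05), and with Zymosan, -0.22 ± 0.06 in 17 of 22 (adjusted p = 0.000648). After thinning, the PAM call was lost (adjusted p = 0.309).

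Rpl24 rose most with PAM, from a median of 594 CPM in libraries without it (range 305 to 875) to 737 with it (579 to 990). The change was 0.36 ± 0.03, higher in 18 of 22 groups (edgeR adjusted p = 9.53e-23), and it also rose with LPS (0.28) and CpGB (0.22). Rps20 and Rps24, small-subunit proteins picked out here after their values were seen, rose with LPS by 0.23 ± 0.03 and 0.26 ± 0.03 (edgeR adjusted p = 1.74e-11 and 2.38e-12) and with cGAMP by 0.20 and 0.16. Rps20 was higher with LPS in 22 of 22 matched groups and Rps24 in 17. Rps24 had been lower than Ctrl with 6 single ligands, and its level in Ctrl (902 ± 137 CPM) was its highest of the 64 groups.

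Rps27l, a p53-responsive relative of Rps27, rose with LPS (0.30), CpGB (0.20) and PAM (0.17), fell with Zymosan (-0.17) and cGAMP (-0.12), and was also chosen after its values were seen. HMW raised Rps3 by 0.17 ± 0.03, in 19 of 22 groups (edgeR adjusted p = 8.63e-07), and lowered the large-subunit protein Rpl31 by -0.18 ± 0.06, in 17 of 22 (adjusted p = 0.0287). The call of Rpl31 was lost after thinning (adjusted p = 0.557) and without replicate 1 or 2 of all groups (0.36 and 0.274). Zymosan raised the small-subunit protein Rps13 by 0.13 ± 0.04, in 16 of 22 groups (edgeR adjusted p = 0.0033), a call lost with library sizes alone (0.0735), after thinning (0.954) and without replicate 3 (0.292).

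Rpl7l1, a paralogue of Rpl7 known in ribosome assembly, was the member with the largest fall with cGAMP. Its libraries with cGAMP had a lowest, median and highest value of 17.9, 70.8 and 119 CPM, and those without it 52.0, 86.9 and 181. The log2 fold change was -0.44 ± 0.08, lower in 17 of 22 groups (edgeR adjusted p = 6.25e-08). Rpl7 itself fell with cGAMP by -0.08 ± 0.03 (adjusted p = 0.0126), a call that was lost without replicate 1 of all groups (0.142). The log2 ratio of Rpl7l1 to Rpl7 counts was -3.42 with cGAMP and -3.01 without, a mean difference of -0.40 ± 0.49 (SD over 22 matched groups), lower in 17 of 22 (2-sided sign-flip permutation p = 0.00078, adjusted over 7 ligands 0.00546). For the other 6 ligands the difference ran from -0.13 to 0.15, with adjusted permutation p of 0.371 to 0.769. Of 7 paralogue pairs considered, this was the only pair with both genes among the members.

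The number of ligands was compared without Ctrl. From single ligands to pairs, 19 members fell (25.7%, background 14.1%) and 3 rose (background 19.7%), with a member median of -0.08 and -0.02 for all tested genes. From pairs to triplets, 8 fell (10.8%, background 10.2%) and 3 rose (background 16.9%), with medians of -0.02 and 0.00. Rpl10a fell by -0.25 ± 0.05 from singles to pairs (edgeR adjusted p = 3.33e-05), with library medians of 469 CPM for 1 ligand, 363 for 2 and 352 for 3. With library sizes alone the counts of falling members rose to 64 (86.5%, background 31.6%) and 34 (45.9%, background 17.8%), with the RLE scaling to 33 (44.6%, background 18.0%) and 13 (17.6%, background 11.7%), and the first rose to 31 with DESeq2 (background 17.1%) and 30 after thinning (background 15.2%). Both moved by more than 1.5 times with no filter on low counts, to 5 (6.76%, background 3.70%) and 1 (1.35%, background 2.37%), and without replicate 1 of all groups, to 8 (10.8%, background 9.46%) and 1 (1.35%, background 6.57%), and the second fell to 5 (6.76%, background 7.55%) and 2 (2.70%, background 5.59%) without replicate 2 or 3.

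A pair interaction asks whether 2 ligands together change a gene by the sum of their single log2 effects. Over the 21 pairs the members had 102 positive departures in 1554 tests (6.56%, background 1.08%), and 4 negative ones (0.257%, background 3.50%). A positive departure of a member that fell with both ligands means that the pair lay above the additive level. LPS + CpGB had 27 positive calls (36.5%, background 3.43%), LPS + SeV 18 (24.3%, background 1.57%) and LPS + cGAMP 14 (18.9%, background 2.71%), with member medians of 0.57, 0.47 and 0.44 and medians of all tested genes at -0.03, 0.01 and 0.04. No member was called in the 6 pairs with HMW, where at most 0.0424% of all tested genes were positive and at most 1.04% negative. All 21 contrasts use the same Ctrl libraries and add their level, so they share its error. Pairs with a ligand in common, such as those with LPS, also subtract the same single-ligand libraries and share their error.

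Rps21 with LPS + CpGB had the smallest adjusted p among the members. It held 496 ± 60.4 CPM in Ctrl, 201 ± 34.8 with LPS, 303 ± 41.2 with CpGB and 309 ± 71.4 with both, a departure of 1.33 ± 0.28 (edgeR adjusted p = 6.07e-05). The largest departure was that of Rpl36 with LPS + cGAMP, 1.67 ± 0.46 (edgeR adjusted p = 0.00483). Rpl36 was scarce and scattered, at 197 ± 79.6 CPM in Ctrl, 93.0 ± 10.6 with LPS, 80.6 ± 42.1 with cGAMP and 126 ± 33.9 with both, and its Ctrl and cGAMP libraries overlapped. Rps14 departed from additivity in 8 pairs, the most of any member, and held 368 ± 19.1 CPM with LPS, 378 ± 53.1 with CpGB and 419 ± 75.7 with both. The share of UMIs was 3.52% ± 0.03 for LPS alone, 3.59% ± 0.02 for LPS + SeV, 3.45% ± 0.09 for LPS + cGAMP and 3.81% ± 0.10 for LPS + CpGB.

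The 4 negative departures all belonged to Rpl24. It held 802 ± 61.4 CPM with PAM, 685 ± 81.8 with CpGB and 769 ± 172 with both, a departure of -0.998 ± 0.229 (edgeR adjusted p = 0.00059). With no filter on low counts the members had 5 positive calls over all pairs (0.322%, background 0.112%) and 4 negative ones (0.257%, background 1.17%). The positive calls numbered 163 with the RLE scaling (10.5%, background 1.44%) and 55 with factors computed without the members (3.54%, background 0.817%). They fell to 32, 19 and 31 when replicate 1, 2 or 3 of all groups was left out, or 2.06%, 1.22% and 1.99%, with backgrounds of 0.455%, 0.384% and 0.396%.

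**Figure D5:**
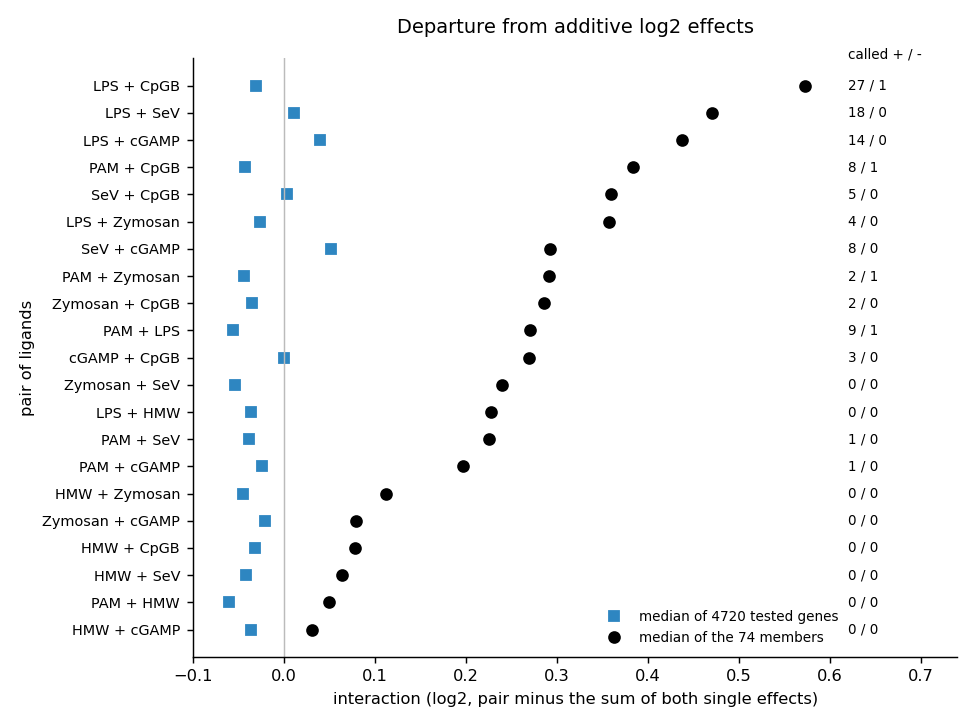
Median departure from additive log2 effects (horizontal axis) of the 74 members (circles) and of 4720 tested genes (squares) for each of the 21 ligand pairs (vertical axis); the numbers on the right count members called above and below additivity. The circles lie right of the squares for each pair, furthest for LPS + CpGB at 0.57.

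The members varied together across groups, with exceptions. The group means of a member (log2 CPM, 64 groups) had a median Pearson r of 0.62 with the summed CPM of the other members, and 52 of 74 exceeded 0.5. Among the other tested genes 10.1% exceeded 0.5, with a median of 0.07. Rpl5 had the highest r, 0.84, and Rps2 (0.83), Rpl32 (0.82) and Rpsa (0.80) were also among the highest. Rps20 (-0.54), Rpl24 (-0.16) and Rps24 (-0.12) were among those below 0. Without Ctrl the median was 0.57, with Rps20 at -0.57, Rps24 at -0.34 and Rpl24 at 0.09, so Rpl24 was no longer below 0. The points share their libraries and scaling, and these values are descriptions with no test.

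Outside the members, the genes whose group means most resembled the summed members were Scd2 (r = 0.81 over 64 groups), Sesn1 (0.79), Hspd1 (0.79), Bin2 (0.79) and Fads1 (0.78). Scd2 and Fads1 are fatty acid desaturases, Sesn1 is a stress-induced inhibitor of mTOR signalling and Hspd1 is a mitochondrial chaperone. Scd2 held 153 ± 11.5 CPM in Ctrl and 3.34 ± 2.94 with LPS. The most opposed were Zbp1 (-0.87), Mndal (-0.87), Nlrc5 (-0.87), Gbp2 (-0.87) and Nt5c3 (-0.86), of which Zbp1, Mndal, Nlrc5 and Gbp2 are known interferon-induced genes. Gbp2 held 199 ± 69.4 CPM in Ctrl and 3583 ± 214 with LPS.

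Small nucleolar RNAs guide the modification of ribosomal RNA, and many are made from introns of ribosomal protein genes. By the GENCODE annotation 27 members contain 55 such genes on the same strand. LPS alone lowered 23 of these 27 hosts, with a median of -0.64, and 26 of the 47 other members, with a median of -0.50. The hosts were also more abundant, with a median of 757 CPM in Ctrl against 556. LPS lowered 24 of the 37 members with the higher totals and 25 of the 37 with the lower. Another coding gene overlaps 18 members, and the strand used in counting is not given in the sources used here.

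Other messages with TOP motifs were counted in a list of translation factors and partners. Of its 21 tested genes, LPS alone lowered 8 and raised none (median -0.43, with 12.9% of all tested genes lower and 17.1% higher), and LPS over the matched groups lowered 11 and raised 3 (median -0.13, with 29.3% of all tested genes lower and 29.6% higher). PAM over the matched groups raised 4 and lowered none (median 0.00), with 21.2% of all tested genes higher and 18.7% lower. The elongation factor Eef2 held 637 ± 88.1 CPM in Ctrl and 349 ± 25.7 with LPS, a change of -0.86 ± 0.17 (edgeR adjusted p = 1.4e-05). Eef1b2 (-0.76) and the translationally controlled protein Tpt1 (-0.53) also fell with LPS alone. The poly(A)-binding protein Pabpc1 rose with cGAMP over the matched groups by 1.08 ± 0.03 (edgeR adjusted p = 2.65e-91), and held 2471 ± 157 CPM with cGAMP alone against 1282 ± 117 in Ctrl.

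Genes that build ribosomes were scarce in these libraries, and 19 of 50 listed were tested. cGAMP over the matched groups lowered 10 and raised none (median -0.23, with 29.7% of all tested genes lower and 28.2% higher), LPS lowered 8 and raised 2 (median -0.24, with 29.3% lower and 29.6% higher), and SeV lowered 8 and raised none (median -0.18, with 16.7% lower and 20.6% higher). The nucleolar methyltransferase Fbl fell by -0.65 ± 0.12 with LPS, -0.51 ± 0.12 with SeV and -0.45 ± 0.12 with cGAMP (edgeR adjusted p = 1.77e-07, 0.000131 and 0.000499). With CpGB 5 rose and none fell (median 0.12, with 19.0% of all tested genes higher and 17.7% lower), among them nucleolin, Ncl, by 0.22 ± 0.08 (adjusted p = 0.0174). Ncl also rose with Zymosan, by 0.46 ± 0.08 (adjusted p = 3.88e-08).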

How the data were processed

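Counts of unique molecular identifiers per gene were deposited by the authors for 64 groups of 3 libraries, with raw whole numbers and no normalisation. The submitters' processing notes name BWA 0.7.15 and mm10. How reads with several matches or strand were handled is not given in the sources used here. Groups came from the sample labels. The members and gene lists were chosen with earlier results of these data known.

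Genes passing edgeR's filterByExpr (4720, holding 95.72% of UMIs) were fitted with edgeR 4.0.16 in R 4.3.3, using TMM factors, 1 coefficient per group over all libraries and quasi-likelihood tests. Contrasts compared each ligand with Ctrl, matched groups with and without a ligand, pairs with singles, triplets with pairs, and pairs with additivity. A gene was called at a Benjamini-Hochberg adjusted p under 0.05 within each comparison, with no fold threshold. CPM values are counts scaled by the TMM-adjusted total of the tested genes (edgeR cpm). The fit was tested on simulated data with 200 changed genes. The ratio of Rpl7l1 to Rpl7 used a pseudocount of 0.5 and 100000 sign flips. SE is the log2 fold change divided by the square root of F. Depth limits precision most in Ctrl.

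Named genes were the called member with the largest rise and fall in each contrast, stalk proteins, paralogue pairs, members with roles outside the ribosome, and the 3 members with the highest and the 3 with the lowest totals. Alternatives were RLE factors, library sizes alone, TMM factors without the members, DESeq2 1.42.0, no filter, thinning, a replicate block, fewer libraries and libraries left out. Promoter windows came from RefSeq and gene positions from GENCODE. Values of some members are not reported here.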

Additional observations from a re-analysis of the deposited data

Results flagged for a closer look

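In 13 ligand pairs, members departed from the sum of the 2 single log2 effects by the interaction test of edgeR. The share of members with a positive departure is given against that of all tested genes. LPS + CpGB had 28 such members, 27 of them positive (36.5% against 3.43%), and PAM + LPS had 10, with 9 positive (12.2% against 3.47%). PAM + CpGB had 9, with 8 positive (10.8% against 3.07%), and PAM + Zymosan 3, with 2 positive (2.70% against 1.04%). In the other pairs all departures of members were positive, with 18 for LPS + SeV (24.3% against 1.57%), 14 for LPS + cGAMP (18.9% against 2.71%), 8 for SeV + cGAMP (10.8% against 1.91%), 5 for SeV + CpGB (6.76% against 1.08%), 4 for LPS + Zymosan (5.41% against 0.975%), 3 for cGAMP + CpGB (4.05% against 0.805%), 2 for Zymosan + CpGB (2.70% against 1.17%), 1 for PAM + SeV (1.35% against 0.275%) and 1 for PAM + cGAMP (1.35% against 0.763%). Negative departures were 1 member in each of 4 pairs (1.35%), with 3.20% to 9.66% of all tested genes negative there. All 13 use the same 3 Ctrl libraries, pairs with a ligand in common also share its single-ligand libraries, and 37 members were involved.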

How the results depend on the processing

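The counts of called members moved with the scaling. Leaving the filter out raised the genes tested from 4720 to 14862 and shifted the log2 changes of the same 4720 genes against Ctrl by a median of 0.159 (HMW) to 0.246 (LPS). RLE factors, library sizes alone and DESeq2 shifted the median of all genes against Ctrl by -0.121, -0.186 and -0.122 on the log2 scale, as medians over the 7 ligands. With library sizes alone the shifts of the genes ran from -0.298 (LPS) to -0.033 (HMW), and with a ligand added from -0.133 (cGAMP) to -0.022 (HMW). The cause of the other changes was not tested. Unless the members are named, percentages are the share of all genes tested (for DESeq2, of those given an adjusted p) that were called the same way in that setting. Against Ctrl, members lower numbered 30, 36 and 30 with PAM under RLE, library sizes alone and DESeq2, 22, 24 and 22 with Zymosan, and 2, 2 and 4 with HMW, with 10.0%, 11.1% and 9.00%, 4.77%, 4.81% and 4.82%, and 0.127%, 0.0636% and 1.14% of all genes lower. Library sizes alone gave 50 with SeV, 54 with cGAMP and 47 with CpGB (backgrounds 11.3%, 15.1% and 14.2%). With a ligand added, the same 3 settings gave 21, 62 and 21 for PAM (22.5%, 36.2% and 22.1%) and 16, 27 and 16 for Zymosan (23.1%, 27.1% and 22.4%), and library sizes alone gave 63 for SeV (29.9%) and 34 for CpGB (24.6%). From singles to pairs they gave 33, 64 and 31 (18.0%, 31.6% and 17.1%), and from pairs to triplets RLE gave 13 and library sizes alone 34 (11.7% and 17.8%). Positive interactions numbered 163, 176 and 195 (1.44%, 1.49% and 2.61%). TMM factors without the members gave 18 for CpGB alone (7.03%), 17 and 4 for PAM and CpGB added (20.1% and 15.1%), and 55 interactions (0.817%). No filter gave 2 (PAM), 13 (LPS), 0 (Zymosan), 1 (SeV), 5 (cGAMP) and 4 (CpGB) against Ctrl (1.33%, 2.25%, 0.249%, 0.740%, 1.34% and 1.49%), 1 (PAM), 28 (LPS), 0 (HMW), 4 (Zymosan), 10 (SeV) and 0 (CpGB) added (5.08%, 9.14%, 0.148%, 5.38%, 3.74% and 4.76%), 5 and 1 for number (3.70% and 2.37%), and 5 interactions (0.112%). Thinning gave 14 for Zymosan added (21.7%), 30 from singles to pairs (15.2%) and 59 interactions (1.26%). Only Ctrl and single-ligand libraries gave 1 for HMW (0.0846%). Without the pairs with Ctrl, PAM, SeV and CpGB added gave 6, 20 and 4 (17.5%, 13.7% and 16.4%).

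Leaving out 1 replicate of Ctrl, of the single-ligand groups or of all groups, with the filter applied again, gave 24 to 39 members lower with LPS (32.4% to 52.7% of members, with 7.38% to 9.94% of all genes), 9 to 27 with SeV (12.2% to 36.5% of members, with 2.71% to 5.03%), 6 to 21 with cGAMP (8.11% to 28.4% of members, with 4.22% to 6.05%), 8 to 24 with CpGB (10.8% to 32.4% of members, with 4.48% to 7.18%), 4 to 10 with PAM (5.41% to 13.5% of members, with 4.29% to 5.93%) and 3 to 9 with Zymosan (4.05% to 12.2% of members, with 0.943% to 1.90%). With a ligand added, leaving out a replicate of all groups gave 37 to 40 lower for LPS (24.2% to 24.7% of all genes), 37 to 49 for cGAMP (23.4% to 24.6%), 10 to 24 for SeV (9.46% to 10.4%), 6 to 9 for PAM (13.6% to 15.4%), 4 to 8 for Zymosan (13.6% to 15.1%), 1 to 4 for CpGB (at most 11.8%) and 0 to 1 for HMW (0.300% to 1.28%). It gave 8 to 17 from singles to pairs (9.11% to 9.46%), 1 to 5 from pairs to triplets (5.59% to 7.55%) and 19 to 32 positive interactions (0.384% to 0.455%).

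With the 50 most abundant other genes left out, the member share was 8.13% (Ctrl), 6.56% (PAM), 5.23% (LPS), 7.41% (HMW), 6.57% (Zymosan), 5.83% (SeV), 5.92% (cGAMP) and 6.15% (CpGB). With no filter, the members' median minus that of all genes tested went from -0.471 to -0.28 with LPS alone, -0.352 to -0.211 with SeV, -0.291 to -0.173 with cGAMP, -0.343 to -0.171 with CpGB, -0.31 to -0.091 with PAM, -0.26 to -0.061 with Zymosan and -0.157 to 0.035 with HMW. Over the same 4720 genes, a comparison chosen after seeing the data, it was -0.459, -0.343, -0.287, -0.339, -0.305, -0.259 and -0.154. Thinning, with 1838 genes tested, gave -0.795 (LPS), -0.552 (SeV), -0.537 (cGAMP) and -0.528 (CpGB). For PAM, Zymosan and CpGB added, where it was -0.014, 0.014 and -0.003, it also changed sign in some settings, to values between -0.024 and 0.017. Other signs that turned were Rps6 with PAM added (-0.02 with library sizes alone) and the ratio of Rpl7l1 to Rpl7 with SeV (0.089 without replicate 1, with a range of -0.163 to 0.089 over the 3 left out in turn) and CpGB (-0.003 and -0.006 without replicates 1 and 2, with a range of -0.006 to 0.093), none of them past the threshold there. Of 1997 rechecks of 143 called gene values, 1513 kept their call, 483 lost it in the same direction and 1 turned.

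Same-numbered Ctrl and single-ligand libraries deviated together with correlations of -0.0154 to 0.0299. Between different groups, the mean correlation of deviations was 0.0083 for the same replicate number and -0.0041 for different numbers. Still, 167 libraries correlated best with their own number, so the low correlations do not show that the numbers carry no shared shift. The main fit had no term for the replicate number, and whether same-numbered libraries share a batch was not tested. A replicate block gave 2 members lower with HMW (0.0636%), 49 with LPS against Ctrl (13.1%) and 48 with LPS added (29.4%).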

Other observations

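Mitochondrial ribosomal proteins, which serve the separate ribosome of the mitochondrion, were scarcer, and 37 of 76 were tested. LPS over the matched groups lowered 13 and raised 2 (median -0.18), and cGAMP lowered 10 and raised 2 (median -0.18), with all tested genes at -0.02 and -0.05 and with 29.3% and 29.7% of them lower and 29.6% and 28.2% higher. Against Ctrl, LPS alone lowered 2 and raised none (median -0.23), with 12.9% of all tested genes lower and 17.1% higher.

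Of the matched symbols 10 fell below the count minimum, among them Rplp2 (1 count), Rps27 (6), Rpl30 (31) and Rpl37 (167), which encode proteins of the standard ribosome. The pseudogene row Rpl34-ps1 held 532 counts and Rps15a-ps6 held 261, against 191 for Rpl34 and 1131 for Rps15a. How reads shared by such copies were counted is not given in the sources used here.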
